A study of Mus musculus with 8 samples.

Results

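The replication-dependent histone genes were described as a group across 4 peak lists from mouse epidermis. They were taken by name from the RefSeq annotation of the mm10 assembly, as every gene whose older symbol starts with Hist1h, Hist2h, Hist3h or Hist4h. The rule gave 70 genes, and 69 of them had a curated transcription start site (TSS), out of 26182 genes with a curated TSS in all. The remaining gene, the H2A pseudogene Hist1h2aj, was measured from its gene start and stands outside the counts. The chromatin was that of the whole epidermis of wild-type (Wildtype) newborn mice, taken on postnatal day 0.5 (P0.5), so that all cell types of that layer are mixed, and none of the libraries carried a deletion or a treatment. MOF, the acetyltransferase that acetylates histone H4 at lysine 16, was mapped by ChIPseq, whereas H3K4me3, H3K27ac and the transcription factor Rfx2 were mapped by Cut&Run. The antibodies of the series numbered 6 over 8 samples, and the 4 lists described here hold 1 library each. No spread between replicates could therefore be measured, and the shares below carry exact (Clopper-Pearson) 95% intervals that cover counting over genes only.

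Replication-dependent histones are made in S phase, when new DNA has to be packed. Their genes lie in clusters, have no introns, and their mRNAs end in a conserved stem-loop instead of a poly(A) tail. The stem-loop is bound by SLBP, and transcription of the genes is driven by NPAT at the histone locus body. H2A, H2B, H3 and H4 are the core histones that form the nucleosome, and H1 binds the linker DNA between nucleosomes. H3K4me3 marks the starts of active or poised genes, and H3K27ac marks active promoters and enhancers.

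The annotation matched the description of the group. All 69 genes had a transcript of 1 exon, the median gene length was 492 bp, and 62 were at most 1 kb long. An exact stem-loop, with paired arms of 6 bases starting with GG, around a loop of 4 bases starting with TTT, was searched on the sense strand in the 150 bases after the stop codon and in the 150 bases on either side of the annotated 3′ end. By either search 64 of 69 genes held a stem-loop. After the stop codon it was found in 63 of 67 histone genes and in 7 of 20933 other genes (0.0334%). Hist2h2be, Hist1h2an, Hist1h3g, Hist1h4a and Hist1h2al had no exact match. The 6 forms found are shown as DNA from the assembly GRCm38.p6, with the loop in capitals, because the site is what sets these genes apart from other genes and because its stem differs by class.
Form of 42 genes of H1, H2A, H2B and H3: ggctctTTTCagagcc
Form of 9 genes of H1, H2A, H2B and H3: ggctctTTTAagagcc
Form of 8 H4 genes: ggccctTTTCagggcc
Form of 2 H4 genes, Hist2h4 and Hist1h4i: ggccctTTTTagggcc
Form of 2 H4 genes, Hist1h4j and Hist1h4b: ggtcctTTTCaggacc
Form of 1 H2A gene, Hist2h2ac: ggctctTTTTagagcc
The stems of all 12 H4 genes with a match differed from the stem shared by the other classes, and among the remaining genes only the last base of the loop varied. In Hist1h4c the site lay at chr13:23698089-23698104, at the end of the gene.

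The encoded proteins vary less than the genes. The 13 H4 genes encode 1 protein of 103 residues, counted with the first methionine. The 12 H3 genes encode 2 proteins of 136 residues, with 99.3% identity, carried by 8 and 4 genes. The 18 H2A genes with a coding sequence encode 9 proteins, the 18 H2B genes 12 and the 6 H1 genes 6. Genes of 1 class can thus encode the same protein and still differ in their promoters, which are shown next.

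Most H2A and H2B genes start back to back. The annotation holds 15 divergent pairs with TSSs within 1 kb, and 14 of these join an H2A to an H2B gene, with 164 to 281 bp between their TSSs (median 210.5 bp). The whole stretch between the TSSs is shown for 6 of these pairs, on the plus strand of GRCm38 (mm10), chosen as 2 of the 3 with the highest MOF score, the pair with the lowest MOF score, an inverted copy with and without a MOF peak, and the testis pair without MOF. Capitals mark a TATA box, a CCAAT box, an octamer or an H1 element on either strand, each searched by the letters given with its share further on.
Hist1h2aj/Hist1h2bm, chr13:21721802-21722043, MOF score 4752: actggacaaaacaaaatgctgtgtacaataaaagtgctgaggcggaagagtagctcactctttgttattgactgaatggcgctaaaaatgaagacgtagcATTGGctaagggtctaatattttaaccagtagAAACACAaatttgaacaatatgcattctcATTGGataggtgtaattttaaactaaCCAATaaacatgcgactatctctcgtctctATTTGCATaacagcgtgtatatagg
Hist1h2ac/Hist1h2bc, chr13:23683960-23684198, MOF score 1339: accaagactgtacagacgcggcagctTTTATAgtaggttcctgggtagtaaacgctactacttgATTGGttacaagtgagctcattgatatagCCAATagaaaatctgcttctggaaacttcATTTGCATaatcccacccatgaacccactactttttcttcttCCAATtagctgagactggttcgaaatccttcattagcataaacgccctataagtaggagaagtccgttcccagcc
Hist1h2ag/Hist1h2bj, chr13:22042950-22043197, MOF score 520: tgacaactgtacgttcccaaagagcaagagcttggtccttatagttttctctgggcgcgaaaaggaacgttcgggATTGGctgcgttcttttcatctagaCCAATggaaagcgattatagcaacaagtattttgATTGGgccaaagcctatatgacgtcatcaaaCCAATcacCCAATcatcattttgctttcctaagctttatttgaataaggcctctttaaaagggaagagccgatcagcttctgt
Hist1h2bq/Hist1h2ao, chr13:21810200-21810366, MOF score 916: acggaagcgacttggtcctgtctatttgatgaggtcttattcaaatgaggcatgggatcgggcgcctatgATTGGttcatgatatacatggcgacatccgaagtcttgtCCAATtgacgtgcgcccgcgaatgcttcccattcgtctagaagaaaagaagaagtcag
Hist1h2ap/Hist1h2br, chr13:21833476-21833742, no MOF peak: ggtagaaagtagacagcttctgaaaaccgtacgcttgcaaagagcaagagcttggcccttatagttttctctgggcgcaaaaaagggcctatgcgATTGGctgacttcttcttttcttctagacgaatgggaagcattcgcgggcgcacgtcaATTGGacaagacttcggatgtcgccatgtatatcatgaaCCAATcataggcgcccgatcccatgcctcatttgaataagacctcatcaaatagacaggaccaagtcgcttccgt
Hist1h2ba/Hist1h2aa, chr13:23934157-23934436, no MOF peak: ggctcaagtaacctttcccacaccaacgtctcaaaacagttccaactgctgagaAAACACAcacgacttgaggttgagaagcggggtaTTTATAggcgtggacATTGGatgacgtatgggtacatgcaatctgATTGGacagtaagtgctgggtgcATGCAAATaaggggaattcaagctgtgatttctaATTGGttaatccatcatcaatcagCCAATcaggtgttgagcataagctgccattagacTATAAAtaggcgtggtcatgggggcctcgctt
The 167 bases between Hist1h2bq and Hist1h2ao occur whole, on the opposite strand, among the 267 bases between Hist1h2ap and Hist1h2br. The octamer is present in 3 of these 6 stretches, including that of the testis pair, and CCAAT boxes are present in each.

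Linker histone and H4 promoters look different. Shown are the 250 bases before the TSS, on the gene's own strand, of an H1 gene with MOF, of the testis H1 gene without any peak, and of the H4 gene with the highest H3K4me3 of its class, from the RefSeq promoter table (GRCm38), with the same letters in capitals.
Hist1h1c, chr13:23738557-23738806, plus strand: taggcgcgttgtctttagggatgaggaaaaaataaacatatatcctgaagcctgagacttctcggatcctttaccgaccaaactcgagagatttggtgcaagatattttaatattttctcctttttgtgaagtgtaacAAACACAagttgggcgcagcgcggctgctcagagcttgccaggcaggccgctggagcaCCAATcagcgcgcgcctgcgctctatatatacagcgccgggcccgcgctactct
Hist1h1t, chr13:23695561-23695810, plus strand: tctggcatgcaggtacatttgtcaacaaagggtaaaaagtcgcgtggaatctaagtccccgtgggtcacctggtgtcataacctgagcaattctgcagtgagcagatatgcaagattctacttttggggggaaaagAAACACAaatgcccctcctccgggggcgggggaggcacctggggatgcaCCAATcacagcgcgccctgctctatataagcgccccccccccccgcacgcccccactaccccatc
Hist1h4c, chr13:23698459-23698708, minus strand: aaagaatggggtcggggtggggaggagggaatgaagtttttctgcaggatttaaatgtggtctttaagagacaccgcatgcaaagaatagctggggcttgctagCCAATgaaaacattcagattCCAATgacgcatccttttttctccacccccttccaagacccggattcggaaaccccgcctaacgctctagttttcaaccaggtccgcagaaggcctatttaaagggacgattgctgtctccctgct
Both H1 promoters hold an H1 element upstream of a CCAAT box, with and without a peak. Hist1h4c is not typical of its class, because 3 of 12 H4 promoters hold any CCAAT box and it is the 1 with at least 2.

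In that promoter table, which runs from 250 bases before to 50 after a start, 62 of the 69 genes were matched, and the separate entries of Hist1h2bq and Hist1h2br hold the same letters. The CCAAT box, searched as CCAAT on both strands, was present in 53 of 62 histone promoters (85.5%) against 41.1% of all 27025 promoters, and 44 held at least 2 copies (71%) against 13.3%. All 18 matched H2A and all 16 matched H2B promoters held at least 2 copies, whereas 3 of 12 H4 promoters held any. The TATA box, searched as TATAAA on both strands, was present in 35 of 62 (56.5%) against 15.7%. The octamer ATTTGCAT, the site of the factor Oct1, occurred on either strand in 14 of 62 (22.6%) against 1.97%, in 7 H2A and 7 H2B promoters and in none of the other classes, and neighbouring H2A and H2B windows overlap. The H1 element AAACACA was found on either strand in 9 of 62 histone promoters (14.5%, 6.86 to 25.8) against 8.22% of all promoters, namely in 5 of 6 H1 promoters, absent from Hist1h1a, in 2 of 18 H2A and in 2 of 16 H2B promoters. In no histone promoter did matches to different motifs overlap.

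As a check of the tissue, H3K4me3 was listed at the promoters of the keratinocyte genes Krt5 (3.51-fold), Krt14 (3.98-fold) and Trp63 (3.29-fold) but not at Krt1 or Krt10. Among 7 genes of fibroblasts, immune cells, melanocytes and endothelium, it was listed at Pdgfra (6.75-fold) and Mlana (4.96-fold), and H3K27ac at none. MOF was listed at Pdgfra (score 880) and Krt14 (score 516). H3K27ac was listed at 1 of the 5 keratinocyte genes, Krt14. Over all genes the shares were 54% for H3K4me3 and 44.1% for H3K27ac, and counts this small do not identify the tissue. The lists held 17546 MOF, 27039 H3K4me3, 30736 H3K27ac and 337 Rfx2 peaks. The lists hold no read counts. The study states the mapped reads of each library, which are not repeated here, and by that account the Rfx2 library was the shallowest of the 4, so a missing Rfx2 peak weighs less than a missing peak of the other lists. A MOF region carries a score whose scale was not stated, whereas the other lists give the fold enrichment over background at the peak, and no height was compared between lists.

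A gene was counted as having a peak when a peak overlapped its promoter stretch, which begins 1 kb before a TSS and ends 100 bp after it, by at least 1 bp. MOF was listed at 57 of 69 histone genes (82.6%, 95% interval 71.6 to 90.7), against 23.7% of all genes. H3K4me3 was listed at 68 of 69 (98.6%, 92.2 to 100), against 54% of all genes. H3K27ac was listed at 38 of 69 (55.1%, 42.6 to 67.1), against 44.1% of all genes. Rfx2 was listed at 0 of 69, which allows a share of up to 4.35% taken as 3 counts of 69, or 5.21% as the upper end of the exact interval, against 1.21% of all genes, so a share near that background could not have been detected. Nearly all these genes carried H3K4me3 and most carried MOF, while the interval of the H3K27ac share holds that of all genes. This last reading changes with the stretch. With 1 kb on either side of a TSS, H3K27ac was listed at 60.9% of histone genes (48.4 to 72.4) against 46% of all genes, and with 2.5 kb at 75.4% (63.5 to 84.9) against 48.3%.

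Most genes with a MOF peak also have H3K4me3, so the share was also read among genes with H3K4me3. There, MOF was listed at 57 of 68 histone genes (83.8%, 72.9 to 91.6) and at 42% of all genes. H3K27ac showed the opposite order, with 38 of 68 histone genes (55.9%, 43.3 to 67.9) against 79.8% of all genes with H3K4me3. At promoters with at most 20% repeated sequence, described further on, the order was the same but the distance smaller, with 27 of 37 histone genes (73%, 55.9 to 86.2) against 81.1% of other genes, which lies within the interval, and above 20% it was 11 of 31 (35.5%, 19.2 to 54.6) against 61.7%. Among genes with MOF, H3K27ac was listed at 33 of 57 histone genes (57.9%, 44.1 to 70.9) against 89.4% of all genes. The combination of MOF and H3K4me3 without H3K27ac was held by 24 of 69 histone genes (34.8%, 23.7 to 47.2) and by 1.62% of all genes. Neither this share nor the one among genes with MOF was split by repeated sequence, above 20% of which H3K27ac was listed less often. All 3 peaks were held by 33 histone genes (47.8%) and by 21% of all genes. No histone gene had MOF without H3K4me3.

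**Figure D1:**
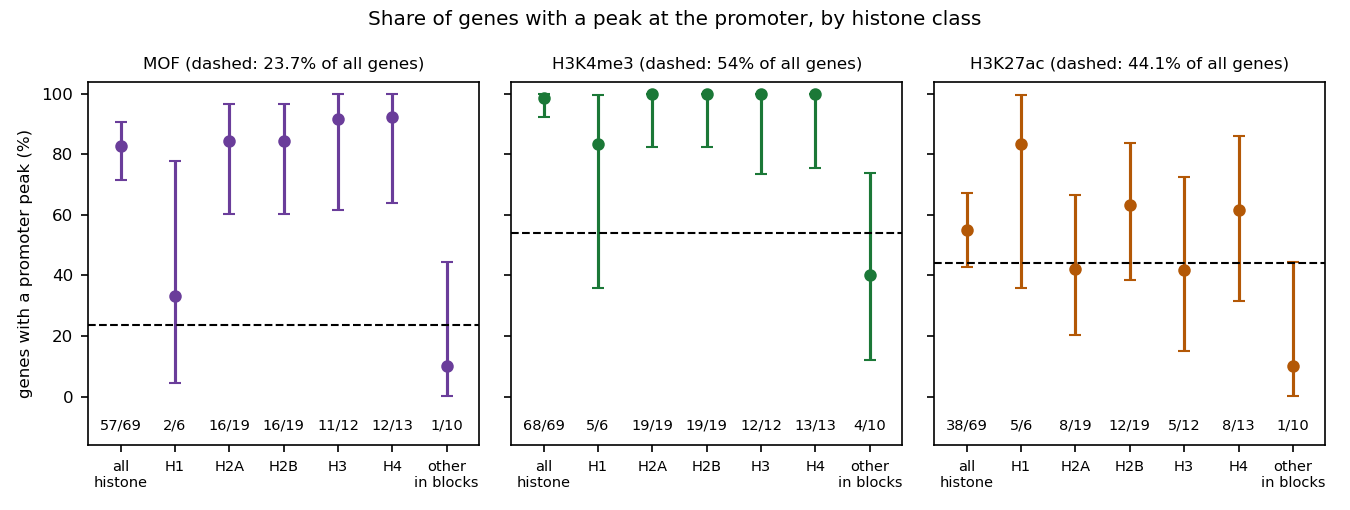
Share of genes with a promoter peak of MOF, H3K4me3 or H3K27ac, for all 69 histone genes, for each class and for the 10 other genes inside the clusters; points are shares in %, bars exact 95% intervals, the fractions genes with a peak over genes, and the dashed line all genes. The core classes lie above the line for MOF and H3K4me3 (16 of 19 to 12 of 13 genes for MOF), H1 stands lower for MOF with 2 of 6, and the H3K27ac interval of every class holds the line.

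These counts rest on fewer peaks than genes. The 57 genes with MOF shared 37 distinct MOF peaks, of which 18 overlapped the promoters of at least 2 histone genes and none more than 3. The 68 genes with H3K4me3 shared 48 peaks, and the 38 genes with H3K27ac shared 35 peaks. When overlapping promoter stretches were merged and counted once, the shares were 85.4% for MOF, 97.9% for H3K4me3 and 60.4% for H3K27ac. The interval of the last (45.3 to 74.2) lies above the 44.1% of all genes, whose promoters were not merged.

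Among the linker histones, MOF was listed at 2 of 6 genes, Hist1h1c (score 787) and Hist1h1e (score 638). Hist1h1a, Hist1h1b, Hist1h1d and Hist1h1t had no MOF peak, and the nearest lay 1239, 2280, 3268 and 2378 bp from their TSSs. H3K4me3 was listed at 5 of 6, with fold enrichments of 3.5 at Hist1h1a, 4.18 at Hist1h1b, 4.79 at Hist1h1d, 5.83 at Hist1h1c and 6.37 at Hist1h1e. The same 5 genes had H3K27ac, between 4.05-fold at Hist1h1a and 5.23-fold at Hist1h1e. Hist1h1t (chr13:23695811-23696545), the H1 of spermatocytes, was the only histone gene without a peak of any list, and its closest H3K4me3 peak lay 1740 bp from its TSS. With 6 H1 genes, the 33.3% with MOF has an interval of 4.33 to 77.7.

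The core histone genes carried MOF in 55 of 63 cases (87.3%, 76.5 to 94.4). Their classes stood close together, with 16 of 19 H2A, 16 of 19 H2B, 11 of 12 H3 and 12 of 13 H4 genes. Those without MOF were Hist1h2aa, Hist1h2af and Hist1h2ap among H2A, Hist1h2ba, Hist1h2bh and Hist1h2br among H2B, Hist1h3g among H3, and Hist1h4b among H4. For Hist1h2bh the nearest MOF peak missed the promoter stretch by 103 bp, and for Hist1h4b by 3951 bp. H3K4me3 was listed at every core gene, whereas H3K27ac was listed at 8 of 19 H2A, 12 of 19 H2B, 5 of 12 H3 and 8 of 13 H4 genes.

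The MOF score varied over a wide range within each core class, whereas the 2 H1 values lay at 638 and 787. Over the 57 genes it ran from 363 to 4752 with a median of 916 (95% interval of the median 836 to 984, or 787 to 992 with overlapping promoters counted once). The score of 48 genes lay above 656, the median of all genes with MOF. The median of the histone genes was above 76.5% of all genes with MOF. Class medians were 932 for H2A, 983 for H2B, 896 for H3 and 916 for H4, and their intervals overlapped. The highest score, 4752, was that of Hist1h2bm (chr13:21722044-21722526), which ranked 7 of 6195 genes with MOF. Hist2h2aa2 and Hist2h3c2 followed with a shared peak at 2228, then Hist2h4 at 1606 and Hist1h4k at 1592. The lowest were Hist1h2ab and Hist1h3b, which share a peak at 363, and Hist1h4c at 391.

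H3K4me3 behaved differently, being almost always present but with a low fold enrichment. Its fold enrichment at the 68 genes ran from 2.44 to 19.0. The median was 4.66 (4.24 to 5.28), or 5.23 (4.49 to 5.56) with overlapping promoters counted once, against 8.04 over all genes with H3K4me3. Only Hist1h2al (19.0), Hist1h4c (10.3) and Hist1h3e (8.38) exceeded that median. The −log10 q-value of the same peaks showed a smaller distance, with a median of 35.1 against 47.5 in all genes. The peaks had a median width of 1653.5 bp (1478 to 1903) against 1319 bp, but this differed by place, with 2566 bp in the Hist2 cluster, 1629 bp in the first block of Hist1 and 1268 bp (794 to 1906) in the second. The keratinocyte genes Krt5, Krt14 and Trp63 had 3.51, 3.98 and 3.29-fold H3K4me3 in peaks of 2710, 2421 and 3941 bp. Fold enrichment over background is therefore not read here as the amount of the mark. Hist1h4c (chr13:23698084-23698458) thus joined a high H3K4me3 peak to one of the lowest MOF scores, and Hist1h2bm joined the highest MOF score to 4.31-fold H3K4me3.

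By class, the lowest H3K4me3 values were 2.44-fold at Hist1h2af, 2.56-fold at Hist1h3i, 2.82-fold at Hist1h2ae and Hist1h2bg, and 3.14-fold at Hist1h4h. The highest H2B value was 7.20-fold at Hist3h2ba.

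At H3K27ac the 38 genes with a peak had a median fold enrichment of 4.70 (4.05 to 5.23), against 6.72 over all genes with H3K27ac. With overlapping promoters counted once the median was 4.88 (4.03 to 5.28). Hist4h4 had the highest value, 8.44, and was followed by Hist1h4j at 6.75 and Hist2h2aa1 at 6.72. The lowest values were 2.75-fold at Hist1h2bl and Hist1h3h, which share a peak, 2.94-fold at Hist1h4h and 2.97-fold at Hist1h2af. The widest peak of Hist1, 1434 bp, was that of Hist1h1d. The peaks were narrow, with a median of 596 bp against 907 bp in all genes. The median −log10 q-value was 9.07 against 15.2.

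**Figure D2:**
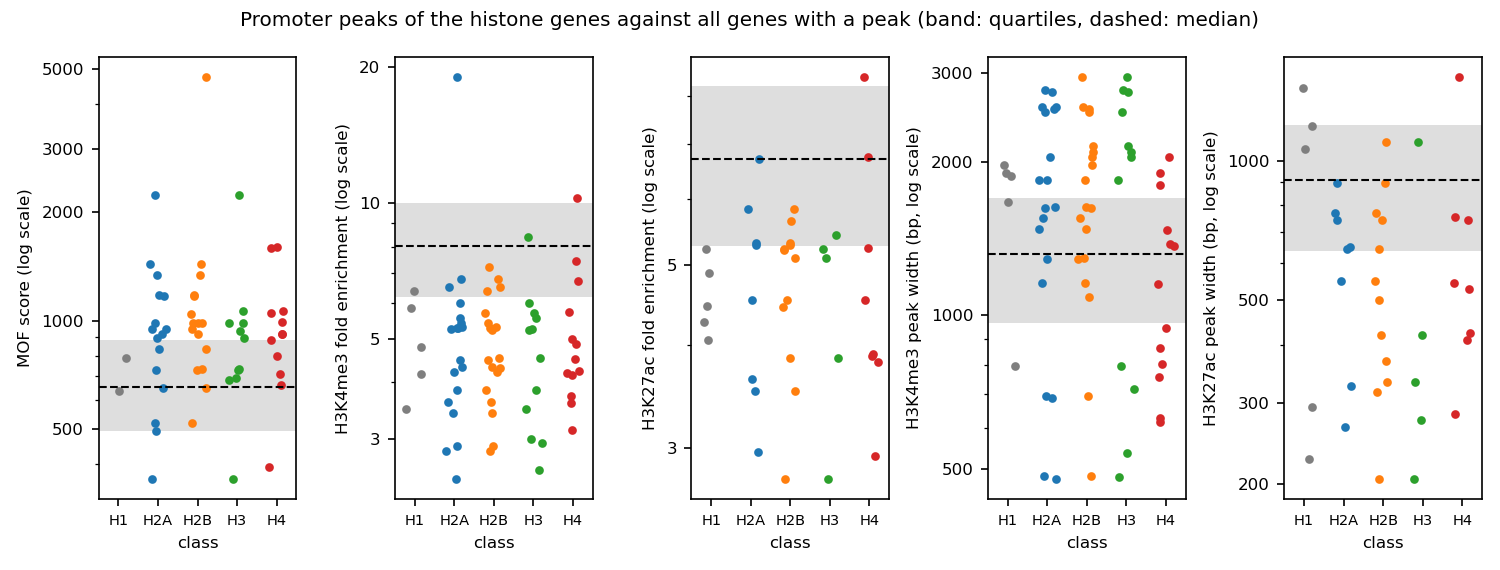
Height or width of the highest promoter peak of each histone gene by class, with log axes: MOF score, H3K4me3 and H3K27ac fold enrichment, and peak width of H3K4me3 and H3K27ac in bp. In each panel 1 point is 1 gene, the grey band spans the quartiles of all genes with a peak and the dashed line is their median. For widths, the band and line take the widest peak of each gene, so a gene with several peaks can be drawn narrower than its widest. MOF scores lie mostly above the line of 656, H3K4me3 fold enrichments mostly below 8.04, and H3K27ac mostly below 6.72-fold and 907 bp.

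The 3 marks also lay differently over the genes themselves. Of the 62 histone genes of at most 1 kb, 44 were covered from end to end by H3K4me3 (71%, 58.1 to 81.8), 21 by MOF (33.9%, 22.3 to 47.0) and 7 by H3K27ac (11.3%, 4.66 to 21.9). In the 49 other protein-coding genes of that length with H3K4me3 at the promoter, the shares were 28.6%, 10.2% and 0%. H3K27ac covered no base of 33 of the 62 histone genes. H4 genes were covered whole by H3K4me3 in 11 of 13 cases and H2A genes in 10 of 18.

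Most divergent pairs had a MOF peak that lay over both starts. A single MOF peak overlapped both promoters in 12 of 15 pairs and spanned both TSSs in all 12. The 3 pairs without it were Hist1h2ap/Hist1h2br, Hist1h2ba/Hist1h2aa and Hist1h2bh/Hist1h3f, the last of which is the pair without an H2A and has 608 bp between its TSSs. A single H3K4me3 peak was shared in 15 of 15 pairs and spanned both TSSs in 13. H3K27ac was shared in 7 of 15 and spanned both TSSs in 2, Hist1h2an/Hist1h2bp and Hist1h2ak/Hist1h2bn. In 2 others, Hist2h2ac/Hist2h2be and Hist1h2bh/Hist1h3f, H3K27ac peaks lay on both sides of the midpoint, and in Hist3h2bb-ps/Hist3h2a, Hist1h2aj/Hist1h2bm and Hist1h2ag/Hist1h2bj the peak did not reach both TSSs. MOF was listed at 24 of 29 pair members (82.8%, 64.2 to 94.2) and at 33 of 40 other genes (82.5%, 67.2 to 92.7).

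**Figure D3:**
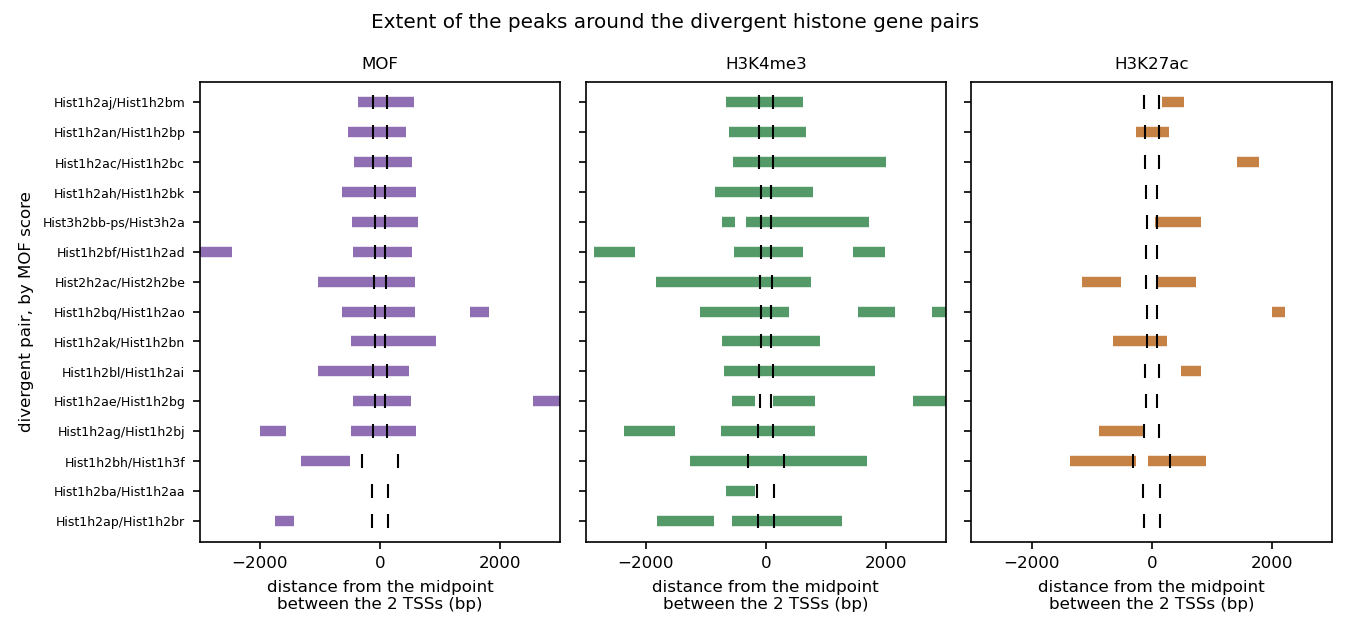
Extent of MOF, H3K4me3 and H3K27ac peaks around the midpoint between the TSSs of the 15 divergent pairs, ordered by MOF score with pairs without a shared MOF peak at the bottom; the x axis is the distance in bp, black ticks are the TSSs and bars are peaks inside the histone gene blocks. MOF bars cross both ticks in 12 pairs, H3K4me3 bars in 13 and H3K27ac bars in 2.

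The highest shared MOF scores among pairs were 4752 at Hist1h2aj/Hist1h2bm, 1435 at Hist1h2an/Hist1h2bp and 1339 at Hist1h2ac/Hist1h2bc. The lowest were 520 at Hist1h2ag/Hist1h2bj, 651 at Hist1h2ae/Hist1h2bg and 727 at Hist1h2bl/Hist1h2ai. Read against the sequences shown above, the pair with the lowest score held 5 CCAAT boxes and no octamer, and the highest held 3 CCAAT boxes and 1 octamer. The pairs next to them, which are not shown, had the octamer the other way round. Hist1h2ae/Hist1h2bg (651) held 2 CCAAT boxes and 1 octamer, and Hist1h2an/Hist1h2bp (1435) held 4 CCAAT boxes and no octamer. The testis pair, Hist1h2ba and Hist1h2aa, held 4 CCAAT boxes and 1 octamer without MOF or H3K27ac. Its H3K4me3 peak (6.77-fold, 483 bp, chr13:23933629-23934111) covered 89.6% of Hist1h2ba and the bases beyond its 3′ end and reached neither TSS, and no MOF peak lay within 58256 bp of the TSS of Hist1h2ba.

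By position, the genes stand in 6 groups. Genes less than 200 kb apart were joined into blocks, which split Hist1 into a first block of 24 genes over 328 kb (chr13:21715711-22043658) and a second of 31 genes over 404 kb (chr13:23531044-23934913). Hist2 holds 10 genes over 50.3 kb (chr3:96219885-96270192), Hist3 holds 3 over 6.28 kb (chr11:58948911-58955192), and Hist4h4 stands alone (chr6:136803993-136804431). The transcribed pseudogene Hist1h2al also stands alone, apart from the Hist1 blocks (chr13:51200084-51203066) and had the highest H3K4me3, 19.0-fold, with a MOF score of 494 and no H3K27ac.

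MOF was listed at all 10 Hist2 genes, all 3 Hist3 genes, Hist4h4 and 43 of 55 genes named Hist1. The 10 Hist2 genes shared 5 MOF peaks with scores from 896 to 2228, all above the median of all genes. H3K27ac was listed at 7 of 10 Hist2 genes, all 3 Hist3 genes, Hist4h4 and 27 of 55 Hist1 genes. Gene by gene, the peak at chr3:96219950-96221553 gave Hist2h2ab, Hist2h2ac and Hist2h2be their MOF score of 948, and Hist2h3b and Hist2h2bb shared a score of 988. Hist2h2aa1 and Hist2h3c1 shared a MOF peak of 896, the widest of the cluster at 2205 bp. H3K4me3 in Hist2 was even, from 4.54-fold at Hist2h3b and Hist2h2bb to 5.71-fold at Hist2h4, and its widest peak measured 2781 bp, over Hist2h2aa1 and Hist2h3c1. In Hist3, Hist3h2ba had MOF at 984 and H3K4me3 at 7.20-fold, and Hist3h2a and the pseudogene Hist3h2bb-ps shared MOF at 1173 and H3K4me3 at 6.50-fold. Hist4h4 had MOF at 799, H3K4me3 at 6.71-fold and H3K27ac at 8.44-fold.

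In Hist1 the widest H3K4me3 peak, 2942 bp, lay over the divergent pair Hist1h2bh/Hist1h3f, and the widest MOF peak, 2822 bp, at Hist1h4j. In the second Hist1 block, MOF with H3K4me3 but no H3K27ac was as frequent as all 3 together, 11 of 31 genes each.

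MOF peaks covered 5.27% of the first Hist1 block, 4.27% of the second, 18.6% of Hist2 and 38.6% of Hist3, against 0.489% of the genome. H3K4me3 covered 12.1%, 7.93%, 23.4% and 25.8%, against 0.892%. H3K27ac covered 2.55%, 2.76%, 8.59% and 10.8%, against 0.712%. At histone promoters lay 13 of 18 MOF peaks of the first Hist1 block, 15 of 17 of the second, 5 of 5 in Hist2 and 2 of 2 in Hist3.

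**Figure D4:**
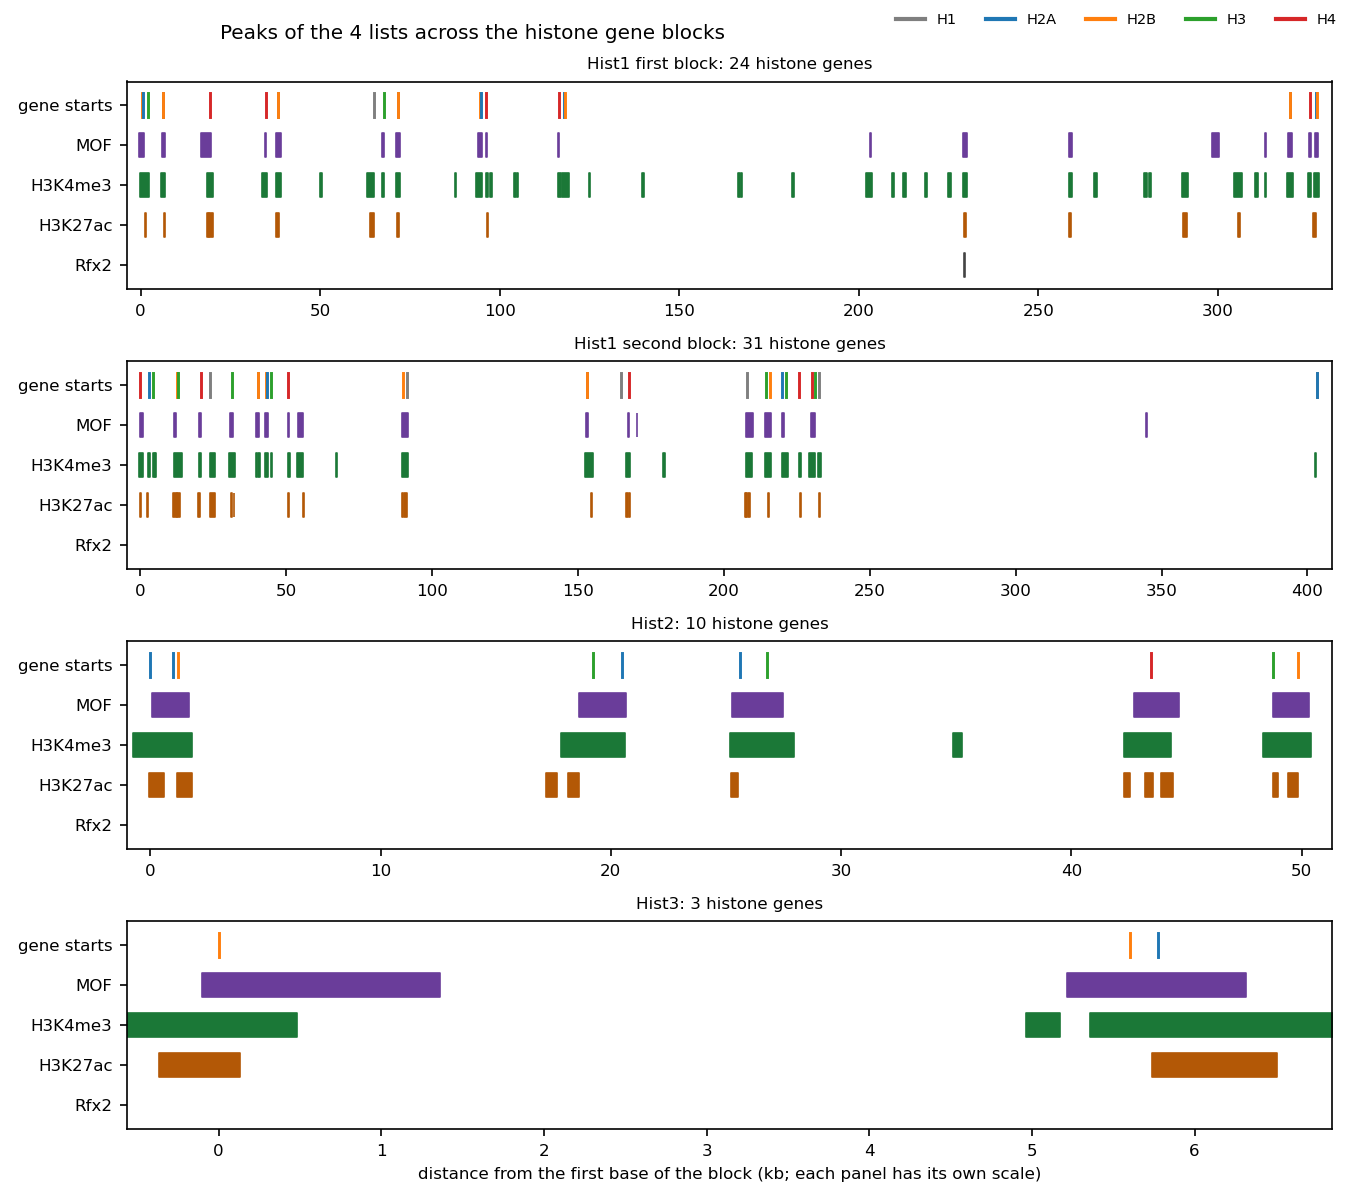
Histone gene starts, coloured by class, and the peaks of the 4 lists across the Hist1, Hist2 and Hist3 blocks; the x axis is the distance in kb from the first base of the block, each bar is 1 peak, and peaks wholly outside a block are not drawn. MOF peaks follow the gene starts, with 5 of 5 peaks at histone promoters in Hist2, and the only Rfx2 peak lies in the first Hist1 block away from the histone genes.

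The genes that lie between the histone genes had fewer peaks than these. Of 10 such genes, MOF was listed at 1 (10%, 0.253 to 44.5, against 23.7% of all genes), the zinc finger gene Zfp184, with a score of 550. H3K4me3 was listed at 4, namely Hfe (12.6-fold), Pom121l2 (11.3-fold), Mir1983 (9.15-fold) and Zfp184 (6.85-fold), and H3K27ac at Zfp184 alone. The H3K4me3 share of 4 in 10 has an interval of 12.2 to 73.8, and like that of MOF it holds the share of all genes, here 54%. Their H3K4me3 was thus rarer than at the histone genes, 4 of 10 against 68 of 69, and higher than the histone median of 4.66 wherever present. The Rfx2 peak in the first Hist1 block, 6.37-fold, lay at the promoter of Zfp184. No other block held an Rfx2 peak, and the nearest was 595 kb from Hist2, 884 kb from Hist3, 1551 kb from Hist4h4 and 1586 kb from the second Hist1 block.

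Histone genes are near copies of each other, and reads that lie wholly in sequence that occurs more than once cannot be placed with certainty. Repetition was measured as the share of 31-base words of a promoter stretch that occur more than once in the genome. Its median was 18.4% over the histone genes against 1.21% over all genes, and 31 of 69 histone genes exceeded 20% against 12.1% of all genes. H2A and H2B promoters had medians of 31.4% and 31.9%, H3 13.8%, H4 9.52% and H1 0%. Within the transcribed part the median was 62.9%. The reads that the study states are longer than these words, so a read that holds a repeated word may still be placed. They were single-end for MOF and paired-end for Cut&Run, and the effect of this on the shares below was not tested.

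MOF and H3K27ac stood in opposite order across this share, although the MOF intervals overlap. Among histone genes with H3K4me3 and at most 20% repeated words, MOF was listed at 28 of 37 (75.7%, 58.8 to 88.2) and H3K27ac at 27 of 37 (73%, 55.9 to 86.2). Above 20%, MOF was listed at 29 of 31 (93.5%, 78.6 to 99.2) and H3K27ac at 11 of 31 (35.5%, 19.2 to 54.6). Among the other genes with H3K4me3, MOF was listed at 41.9% and 39.8% below and above 20%, and H3K27ac at 81.1% and 61.7%. At histone genes with at most 20% repeated words, the interval of the H3K27ac share therefore holds the 81.1% of other genes, and that of the MOF share lies above 41.9%. The part of repeated sequence in the low H3K27ac share was not tested, and class and repetition go together here.

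**Figure D5:**
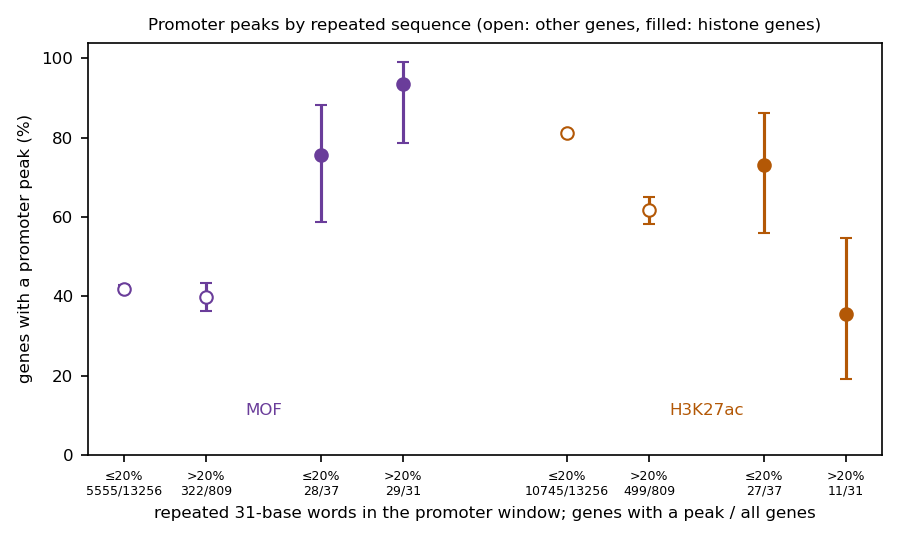
Share of genes with a MOF (left) or H3K27ac (right) promoter peak among genes with H3K4me3, split at 20% repeated 31-base words in the promoter stretch; open points are other genes, filled points histone genes, bars exact 95% intervals, and the fractions give genes with a peak over genes. H3K27ac falls from 73% to 35.5% in histone genes, while MOF is 75.7% and 93.5%.

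Where promoters were copied almost whole, the lists gave the copies different values. Hist1h2bq and Hist1h2ao had MOF at a score of 916, and their inverted copies Hist1h2br and Hist1h2ap, which hold 100% and 90.7% of their words, had none. All 4 had H3K4me3, at 3.61-fold for the first pair and 4.22-fold for the second, and none had H3K27ac. Hist2h3c1 and Hist2h3c2, which share 92.5% of their words, had MOF at 896 and 2228 and H3K4me3 at 5.26-fold and 5.56-fold. Hist1h4m and Hist1h4n, which share 97% of theirs, had MOF peaks of their own at 782 (314 bp) and 711 (320 bp), and the promoter stretch of Hist1h4m is also touched by the peak of 916 at Hist1h2bq and Hist1h2ao. Of the 8 genes with over 90% repeated words, 6 had MOF, 8 had H3K4me3 and 0 had H3K27ac, and the value of a single copy is uncertain because its reads can match another copy as well.

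Variant histone genes outside the clusters were set beside them from a list of 10. H3K4me3 was listed at 10 of 10 (69.2 to 100), against 54% of all genes. H3K27ac was listed at 9 of 10 (55.5 to 99.7), absent from H2afj, and this interval holds the 79.8% of all genes with H3K4me3. MOF was listed at 6 of 10 (60%, 26.2 to 87.8), an interval that holds the 42% of all genes with H3K4me3, with scores of 1349 at H3f3b, 1216 at H2afz, 959 at H2afy2, 818 at H2afx, 357 at H2afv and 278 at H1fx. No MOF peak was listed at H3f3a, which encodes the same H3.3 protein as H3f3b, or at H2afy, H2afj and H1f0. H2afx, the variant that also ends in a stem-loop, was the only variant for which the search after the stop codon found one.

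The genes that act on replication-dependent histones were mostly marked as well. In a list of 12 regulators of their transcription and 3′ processing, both H3K4me3 and H3K27ac were listed at 12 of 12 (73.5 to 100). For H3K4me3 that interval lies above the 54% of all genes, and for H3K27ac it holds the 79.8% of all genes with H3K4me3. MOF was listed at 9 (75%, 42.8 to 94.5), against 42% of all genes with H3K4me3, which lies just below the interval. Npat, the coactivator of histone genes, had a MOF score of 824, Hinfp, which binds H4 promoters, 812, and Casp8ap2, a histone locus body protein, 555. Those without a MOF peak were Slbp, the stem-loop binding protein, with 6.55-fold H3K4me3 and 7.46-fold H3K27ac, Cstf2, a cleavage factor, with 10.1-fold and 8.17-fold, and Eri1, a 3′ exonuclease that acts on histone mRNA, with 7.37-fold and 6.70-fold. Lsm10 and Lsm11, parts of the U7 particle that cuts histone mRNAs, had scores of 208 and 976. In a list of 8 histone chaperones, both marks were listed at 8 of 8 (63.1 to 100), which again lies above 54% for H3K4me3 and holds 79.8% for H3K27ac. MOF was listed at 5 (62.5%, 24.5 to 91.5), an interval that holds the same 42%, with 1259 at Hira, 1171 at Asf1b and none at Chaf1a, Chaf1b or Atrx. Rfx2 was listed at none of these 30 genes, of which no reading can be made at a share of 1.21% of all genes.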

How the data were processed

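The submitters' processing notes name Bowtie2, MACS2 and mm10. The authors called peaks per library, and neither a control, a mapping-quality limit nor excluded regions were given in the sources used here. The deposited H3K4me3, H3K27ac and Rfx2 lists hold for each peak a score, a fold enrichment (a ratio), a −log10 p-value and a −log10 q-value from the authors' peak caller. The deposited MOF list holds regions and a score of unstated scale, without a fold enrichment or a p-value, and is longer than the MOF peak count the study states, so it may be another call than the one described by the authors, and every MOF share rests on it. The labels tie the H3K4me3 list to the repeat library, but its name lacks the mark of a repeat. The H4K16ac, H3K4me1 and first H3K4me3 and H3K27ac libraries were not used here. The lists hold no read counts, and the mapped reads that the study states per library were not used.

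The peaks were overlapped by at least 1 bp with promoter stretches (1 kb upstream to 100 bp downstream of each curated RefSeq TSS of GRCm38.p6) in Python 3.11.15 with numpy 2.4.6 and scipy 1.17.1. The overlap code (against bedtools 2.31.1) and the word counting were tested on simulated data. A gene's height was that of its highest promoter peak, and medians of width took its widest. Intervals are exact (Clopper-Pearson), and those of medians come from order statistics. With 1 list per antibody, no test was made. Alternatives changed the promoter stretch, the strength of peaks, the members counted and the repeated sequence allowed. The genes, the lists and the comparisons were chosen with earlier results of these data known. Genes were named with values where they had the highest, the lowest or no peak of a class, lay outside Hist1, belonged to the 3 highest or 3 lowest pairs by MOF score, or had the widest peak of a cluster. From the lists of variants, regulators and chaperones, genes without MOF were named. The copied promoters, Hist1h2al, the other genes inside the blocks and further list genes were named after their values were seen. Sequences were read from GRCm38.p6 and from the RefSeq promoter table of that build.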

Additional observations from a re-analysis of the deposited data

How the results depend on the processing

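Of 63 alternative values, 50 stayed within the interval of the main value (for coverage, within 1.5 times) and 13 moved further. Promoter stretches of 2.5 kb on either side raised the shares of histone genes from 82.6% to 92.8% for MOF, from 98.6% to 100% for H3K4me3 and from 55.1% to 75.4% for H3K27ac, against 27.8%, 58% and 48.3% of all genes, and the H3K27ac interval (63.5 to 84.9) then lay above the share of all genes. It did so too with 1 kb on either side (60.9%, 48.4 to 72.4, against 46%) and, against the 44.1% of all genes, which were not merged, with overlapping promoters counted once (60.4%, 45.3 to 74.2). Asking for the peak's centre in the stretch lowered them to 47.8%, 53.6% and 36.2%, and lowered all genes to 14.7%, 25.5% and 26.2%. Keeping the stronger 50% of each list gave 76.8% for H3K4me3 and 34.8% for H3K27ac, against 45.3% and 36.7% of all genes, and coverage of the Hist1 blocks by H3K27ac fell from 2.67% to 1.55%. The cause was not tested. With at most 20% repeated words, H3K27ac was listed at 71.1% (54.1 to 84.6), also above the 44.1% of all genes, which were not limited in the same way. The genes between the histone genes had MOF in 10% of cases and in 0% with the centre rule or the stronger 50%. Without the H1 genes, a choice made after seeing the data, H3K4me3 was listed at 100%, and leaving out Hist1h2al, chosen likewise, moved no share beyond its interval. No paired analysis was possible because only 1 peak list stands for an antibody. How reads from repeated sequence were placed was not given in the sources used here, and the lists hold no read counts, which limits what a missing peak can show, most of all for Rfx2, the shallowest library by the study's account.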

Other observations

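Transfer RNA genes share the first Hist1 block with the histone genes, and this was looked up after the peaks of the block had been seen. The RefSeq annotation places 31 of its 403 tRNA genes there and none in the other blocks. H3K4me3 was listed within 100 bp of 17 of the 31 (54.8%, exact 95% interval 36.0 to 72.7), against 50.9% of all tRNA genes. MOF was listed at 3 of the 31 (9.68%, 2.04 to 25.8) against 20.8%, and H3K27ac at 0 against 12.7%. Of the 39 H3K4me3 peaks in the block, 21 lay at no promoter, and 13 of these lay at a tRNA gene. In the second Hist1 block, without tRNA genes, 2 of 26 H3K4me3 peaks lay at no promoter.

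The centre of the MOF peak of histone genes outside divergent pairs lay at a median of 76.5 bp downstream of the TSS (quartiles −443 and 345 bp, 33 genes), against 14.5 bp over all genes with MOF. For members of divergent pairs it lay at a median of −92.75 bp, between the TSSs. The H3K4me3 centre lay at a median of 195 bp downstream outside pairs, against 141.5 bp over all genes.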
